A study of Mus musculus with 24 samples.

Results

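Splicing factors and other RNA-binding proteins of 3 gene families were followed over 1 day in mouse heart. Members were all genes whose symbol begins with Srsf, Hnrnp or Rbm followed by a digit or a letter, except Rbm3. This gave 70 of the 22180 genes on the array with a probe set of their own, namely 10 Srsf, 19 Hnrnp and 41 Rbm genes. By their RefSeq type 67 of them are protein-coding, and the other 3 are the long noncoding RNAs Rbm3os and Rbm46os and the pseudogene Rbm8a2. The rule rests on names, but these families were picked with earlier results of these data known. All hearts came from 8-week-old male wild-type C57Bl/6 mice kept in 12 h of light and 12 h of dark. Zeitgeber time (ZT) counts hours from lights-on, and myocardium was taken by day at ZT03, ZT07 and ZT11 and by night at ZT15, ZT19 and ZT23. Each of these 6 groups has 4 arrays, which the labels call biological replicates. The samples used here hold no other genotype or treatment. Each time was sampled within a single cycle, so effects of the light schedule and of the internal clock cannot be told apart. The labels give no batch, and one shared by all arrays of a time could not be told apart from the time.

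SR proteins, encoded by the Srsf genes, bind exonic enhancers and promote the inclusion of exons through arginine- and serine-rich tails that are regulated by phosphorylation. The hnRNP proteins package nascent transcripts and often act against SR proteins at neighbouring sites, and several also set the stability of mature mRNA. Rbm genes are named for an RNA-binding motif and have diverse roles, among them the heart's own splicing regulators Rbm20, which controls titin isoforms and is mutated in human dilated cardiomyopathy, and Rbm24, which is needed for splicing of sarcomere genes in the developing heart.

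Each value is a log2 difference from the gene's own median over the 24 arrays, so positive values lie above that median and levels of different genes cannot be compared. Base 2 is assumed. Because the deposited values are centred, the presence of heart markers could not be checked as a level, and no gene can be called absent or dim. The time labels were checked against clock genes, whose peaks lay at ZT 0.329 (Arntl), ZT 7.56 (Nr1d1) and ZT 11.4 (Dbp). Within an array, probe sets had an SD of 0.103 to 0.171. The widest spread was in replicate 1 of ZT15, replicate 4 of ZT23 and replicate 4 of ZT07, to which limma also gave the lowest array weights (0.498, 0.573 and 0.640). Among marker lists, 6 of 8 macrophage genes and 3 of 4 platelet genes had a 24-h rhythm with a dark-phase peak, whereas 1 of 8 ventricular and 0 of 8 atrial cardiomyocyte genes passed (limma, 3 and 4 at an unadjusted p below 0.05). Of all genes 7.61% passed, 3.78% with a dark-phase peak. Fibroblast genes passed in 2 of 8 cases, with opposite peaks (Col1a1 at ZT 6.29, Dcn at ZT 18.7). Also called were 1 of 8 endothelial genes (Kdr, ZT 2.23) and 1 of 5 adipocyte genes (Fabp4, ZT 11.7). The smooth muscle, lymphocyte, neutrophil, red cell and skeletal muscle lists had 0. The mean of the macrophage list lay between -0.36 and 0.076 on day arrays and between -0.066 and 0.35 on night arrays, with -0.36 to -0.031 and 0.026 to 1.32 for the platelet list. The ventricular list lay between -0.051 and 0.071 by day and between -0.064 and 0.024 by night. For the atrial list the arrays lay between -0.17 and 0.24 by day and between -0.13 and 0.51 by night. Its mean was lowest at ZT07 (-0.11) and highest at ZT19 (0.15). The part of these cell types in the results on splicing genes was not tested. In whole tissue, fewer cells of a type and less RNA per cell cannot be told apart.

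A 24-h rhythm was called in a minority of each family, in 15.7% of members against 7.61% of all genes. Srsf5 and Hnrnpdl had the largest. Limma fitted a 24-h wave to each gene, and a gene was called rhythmic when its p, adjusted over all 22180 genes, was below 0.05. Of all genes 7.61% passed this test, against 1 of 10 Srsf genes, 4 of 19 Hnrnp genes and 6 of 41 Rbm genes, 11 of 70 members in all. Of these 11, 10 peaked in the light and 1 in the dark, as 3.83% and 3.78% of all genes did. At an unadjusted p below 0.05, which 19.5% of all genes reached, there were 3, 12 and 15 members, in the same order. The difference in share between the families was not tested. Rhythms were small in most members: the median change from peak to trough was 1.06-fold in the Srsf, 1.12-fold in the Hnrnp and 1.09-fold in the Rbm genes, against 1.06-fold over all genes. A change of at least 1.2-fold was fitted in 2, 4 and 3 members, or 9 of 70, beside 7.36% of all genes.

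**Figure D1:**
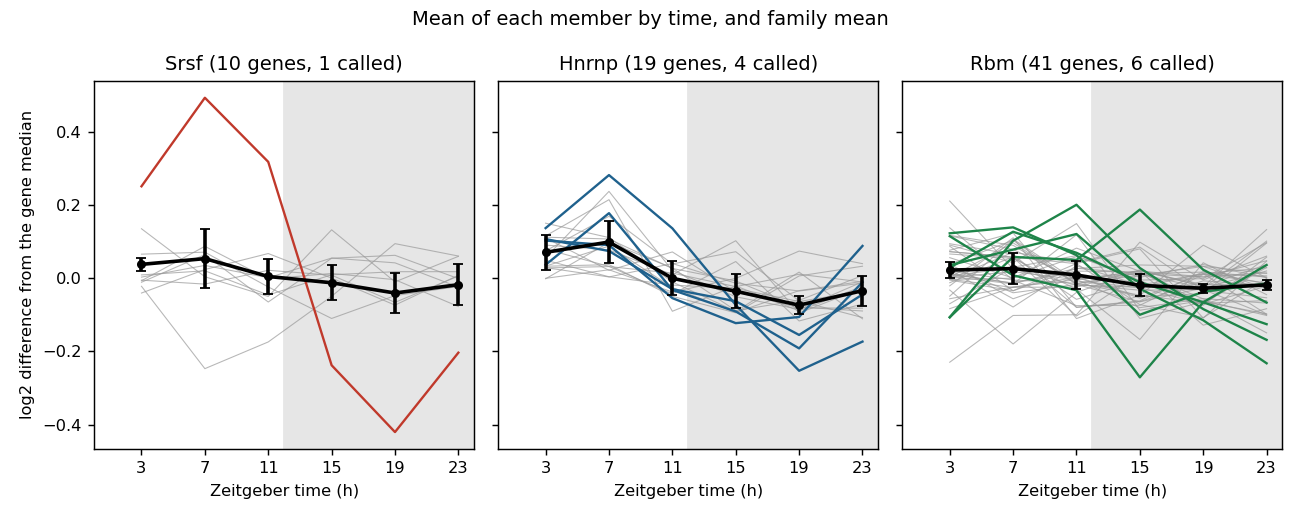
Mean of 4 arrays for each member (thin lines, log2 difference from the gene's median) against zeitgeber time in h, with the dark phase shaded, in 3 panels for the Srsf, Hnrnp and Rbm genes. Coloured lines are the members with a 24-h rhythm, grey lines the others, and the black line with bars is the mean and SD over 4 arrays of the family mean: it is highest at ZT07 and lowest at ZT19 in each family, which in the Srsf family holds with Srsf5 (red) and not over the other 9 genes. In the Srsf and Rbm families the rank of ZT07 above ZT03 rests on ZT07 replicate 4.

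Averaged over its members on each array, the Hnrnp family had means of 0.070 ± 0.0471 at ZT03, 0.098 ± 0.0572 at ZT07, -0.00069 ± 0.046 at ZT11, -0.036 ± 0.0465 at ZT15, -0.074 ± 0.0243 at ZT19 and -0.034 ± 0.041 at ZT23 (log2, SD, n = 4). Its 4 arrays at ZT07 ran from 0.050 to 0.17 and its 4 at ZT19 from -0.10 to -0.044, so these times did not overlap. The Srsf family gave 0.037 ± 0.0185 at ZT03, 0.053 ± 0.0807 at ZT07, 0.0043 ± 0.0479 at ZT11, -0.013 ± 0.0479 at ZT15, -0.041 ± 0.0556 at ZT19 and -0.018 ± 0.0563 at ZT23, with arrays at ZT07 that ran from -0.033 to 0.15 and thus overlapped those at ZT19 (from -0.10 to 0.026). For the Rbm family the means were 0.022 ± 0.0222 at ZT03, 0.026 ± 0.0424 at ZT07, 0.0084 ± 0.0385 at ZT11, -0.020 ± 0.03 at ZT15, -0.028 ± 0.0126 at ZT19 and -0.019 ± 0.0128 at ZT23. Its arrays at ZT07 ran from -0.020 to 0.072 and overlapped those at ZT19 (from -0.037 to -0.0095). All 3 family means were highest at ZT07 and lowest at ZT19. In each family the highest ZT07 array was replicate 4, among the 3 arrays of lowest weight (Srsf 0.15, Hnrnp 0.17, Rbm 0.072). The other ZT07 arrays read 0.080, 0.013 and -0.033 for Srsf and 0.050, 0.00091 and -0.020 for Rbm. In both of these families the rank of ZT07 above ZT03 rested on replicate 4. In the Srsf family the course from ZT07 to ZT19 came from Srsf5. Without it, an alternative chosen after seeing the data, the mean of the other 9 Srsf genes was highest at ZT03 (0.014 ± 0.0232, SD, n = 4) and lowest at ZT11 (-0.030 ± 0.0395), and its difference between ZT07 and ZT19 went from 0.094 to 0.0030. No test was made on these averages.

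The promoters of 4 members are shown because Srsf5 and Hnrnpdl had the largest rhythms of all members with nearly the same peak, Hnrnpd is the close relative of Hnrnpdl, and Srsf3 belongs to the family of Srsf5 but did not pass the test. Each stretch holds 250 bases before and 50 bases after the RefSeq start of the gene on GRCm38.p6, read 5′ to 3′ on the gene's strand. Capitals mark matches to the motifs that were searched for on both strands: the E-box CACGTG, which CLOCK and BMAL1 bind, the D-box TTATGTAA, the site AGGTCA of REV-ERB and ROR receptors, the heat shock element GAANNTTC and the cyclic AMP response element TGACGTCA.
Srsf5: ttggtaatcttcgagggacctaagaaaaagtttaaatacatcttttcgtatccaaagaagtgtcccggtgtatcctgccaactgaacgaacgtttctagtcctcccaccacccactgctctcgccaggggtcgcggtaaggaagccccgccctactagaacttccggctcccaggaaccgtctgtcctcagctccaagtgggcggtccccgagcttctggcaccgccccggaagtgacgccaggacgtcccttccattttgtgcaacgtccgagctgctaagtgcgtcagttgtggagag
Hnrnpdl: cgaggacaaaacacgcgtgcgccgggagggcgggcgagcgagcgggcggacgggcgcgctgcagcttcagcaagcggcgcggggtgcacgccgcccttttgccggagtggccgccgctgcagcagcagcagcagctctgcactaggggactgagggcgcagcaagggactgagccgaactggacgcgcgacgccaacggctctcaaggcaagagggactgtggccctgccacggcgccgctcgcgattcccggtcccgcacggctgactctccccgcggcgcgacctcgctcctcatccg
Hnrnpd: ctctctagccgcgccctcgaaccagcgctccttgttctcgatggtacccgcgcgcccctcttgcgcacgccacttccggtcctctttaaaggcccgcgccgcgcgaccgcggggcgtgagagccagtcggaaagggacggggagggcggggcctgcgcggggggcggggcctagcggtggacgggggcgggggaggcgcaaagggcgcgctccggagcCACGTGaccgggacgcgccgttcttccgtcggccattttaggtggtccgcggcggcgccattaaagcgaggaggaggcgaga
Srsf3: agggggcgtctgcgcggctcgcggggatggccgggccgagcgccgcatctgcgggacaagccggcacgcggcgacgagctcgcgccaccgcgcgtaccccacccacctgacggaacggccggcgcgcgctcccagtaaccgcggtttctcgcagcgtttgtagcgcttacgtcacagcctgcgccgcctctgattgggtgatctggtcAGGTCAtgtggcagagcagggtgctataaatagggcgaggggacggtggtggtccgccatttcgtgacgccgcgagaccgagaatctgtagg
These stretches lie at chr12:80945249-80945548, plus strand (Srsf5), chr5:100039173-100039472, minus strand (Hnrnpdl), chr5:99978889-99979188, minus strand (Hnrnpd) and chr17:29032410-29032709, plus strand (Srsf3). Neither Srsf5 nor Hnrnpdl held any of these motifs, Hnrnpd held an E-box whose first base is 32 bases before the start, and Srsf3 held a receptor site 42 bases before it. The table of promoters had 80 stretches for 60 members, including 12 stretches for 10 of the 11 members with a rhythm. Among those 12 the E-box of Hnrnpd was the single match to any motif. An E-box was found in 11 of the 80 member promoters (13.8%) and in 7.15% of all 32851 promoters, and a receptor site in 7 (8.75%) and in 16.3%. Heat shock elements were in 6 (7.5%) and in 7.86%, while the D-box (0.938% of all promoters) and the cyclic AMP response element (1.79%) were in 0 member promoters. Some members hold several stretches, so these are not independent. The GC content was 56% for Srsf5 against 72.7%, 72.3% and 68.3% for Hnrnpdl, Hnrnpd and Srsf3, with a median of 63% over members and 52.7% over all promoters. A match is a string of letters only, and its absence says nothing of a factor's binding elsewhere.

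Srsf5, an SR protein with a pair of RNA recognition motifs, had the widest range of all 70 members. By day its 4 arrays read 0.17, 0.23, 0.30 and 0.30 at ZT03, 0.43, 0.35, 0.39 and 0.81 at ZT07, and 0.10, 0.38, 0.39 and 0.39 at ZT11 (replicates 1 to 4). By night they read -0.14, -0.17, -0.28 and -0.36 at ZT15, -0.41, -0.49, -0.36 and -0.42 at ZT19, and -0.10, -0.25, -0.14 and -0.32 at ZT23. All 12 day arrays lay above all 12 night arrays, a separation that 15 genes, or 0.0676% of all genes, showed. The rhythm passed in limma's test (amplitude of 0.472 ± 0.0329 (SE, 24 arrays), 1.93-fold from peak to trough, peak at ZT 7.08 ± 0.266 h, adjusted p = 2.65e-09). ZT07 replicate 4 was the highest array, and without it the amplitude was 0.444 (adjusted p = 1.42e-09). In ZT11 replicate 1 the value of 0.10 stood well below the other 3 arrays of its time.

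No other Srsf gene passed the test of a 24-h rhythm. Srsf3, one of the smallest SR proteins, came closest and had its fitted peak in the night (amplitude of 0.166 ± 0.0464 (SE, 24 arrays), 1.26-fold from peak to trough, peak at ZT 20.8 ± 1.06 h, adjusted p = 0.0661). Its arrays read 0.22, -0.24, -0.073 and 0.0043 at ZT03, -0.22, -0.27, -0.57 and 0.067 at ZT07, and -0.23, -0.12, -0.35 and 0.0091 at ZT11 by day. By night they read -0.20, 0.25, -0.0043 and -0.25 at ZT15, 0.025, 0.0055, 0.14 and 0.21 at ZT19, and 0.14, -0.070, 0.061 and 0.11 at ZT23. Replicates varied widely, with an SD of 0.261 at ZT07, and the arrays of the highest time, ZT19, overlapped those of the lowest, ZT07. The adjusted p fell below 0.05 when arrays were weighted (0.0348), when the 3 arrays with the lowest weights were dropped (0.0395), and without any of 4 of the 24 arrays (ZT03 replicate 1, ZT07 replicate 4, ZT11 replicate 4 or ZT15 replicate 2, lowest 0.0291). Whether Srsf3 and Srsf5 differ in their course was not tested.

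Srsf6, an SR protein built like Srsf5, averaged over its probe sets had an amplitude of 0.0855 ± 0.0245 (SE, 24 arrays), 1.13-fold from peak to trough, peak at ZT 4.56 ± 1.09 h, adjusted p = 0.076. Its day arrays read 0.083, -0.022, 0.11 and 0.091 at ZT03, 0.17, -0.039, 0.085 and 0.063 at ZT07, and -0.10, -0.061, 0.00015 and 0.065 at ZT11, and its night arrays 0.041, -0.083, -0.26 and -0.14 at ZT15, -0.0089, -0.13, -0.057 and 0.00082 at ZT19, and 0.064, -0.19, -0.0047 and 0.040 at ZT23. Its 2 probe sets differed: 1 changed 1.25-fold with a peak at ZT 5.49 (adjusted p = 0.00631 over all 34351 probe sets in limma, of which 5.27% passed), from 0.16 ± 0.096 (SD, n = 4) at ZT07 to -0.19 ± 0.16 at ZT15, and the other 1.06-fold (adjusted p = 0.613). Srsf2, a nuclear SR protein, had an amplitude of 0.0483 ± 0.0288 (SE, 24 arrays), 1.07-fold from peak to trough, peak at ZT 9.32 ± 2.28 h, adjusted p = 0.609. By day its arrays read -0.038, 0.072, -0.20 and 0.14 at ZT03, 0.17, 0.15, 0.11 and -0.081 at ZT07, and -0.085, 0.060, -0.057 and 0.073 at ZT11. Its night arrays read 0.11, 0.0097, 0.000074 and -0.073 at ZT15, -0.14, -0.056, 0.080 and 0.097 at ZT19, and -0.000074, -0.16, -0.042 and -0.10 at ZT23. Arrays at ZT23 lay at or below 0, and each of the other times had arrays on both sides of it. The other 6 Srsf genes (Srsf1, Srsf4, Srsf9, Srsf10, Srsf11 and Srsf12) had fitted changes of 1.03 to 1.07-fold, and none passed (largest adjusted p = 0.966 for Srsf9, smallest 0.510 for Srsf11).

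**Figure D2:**
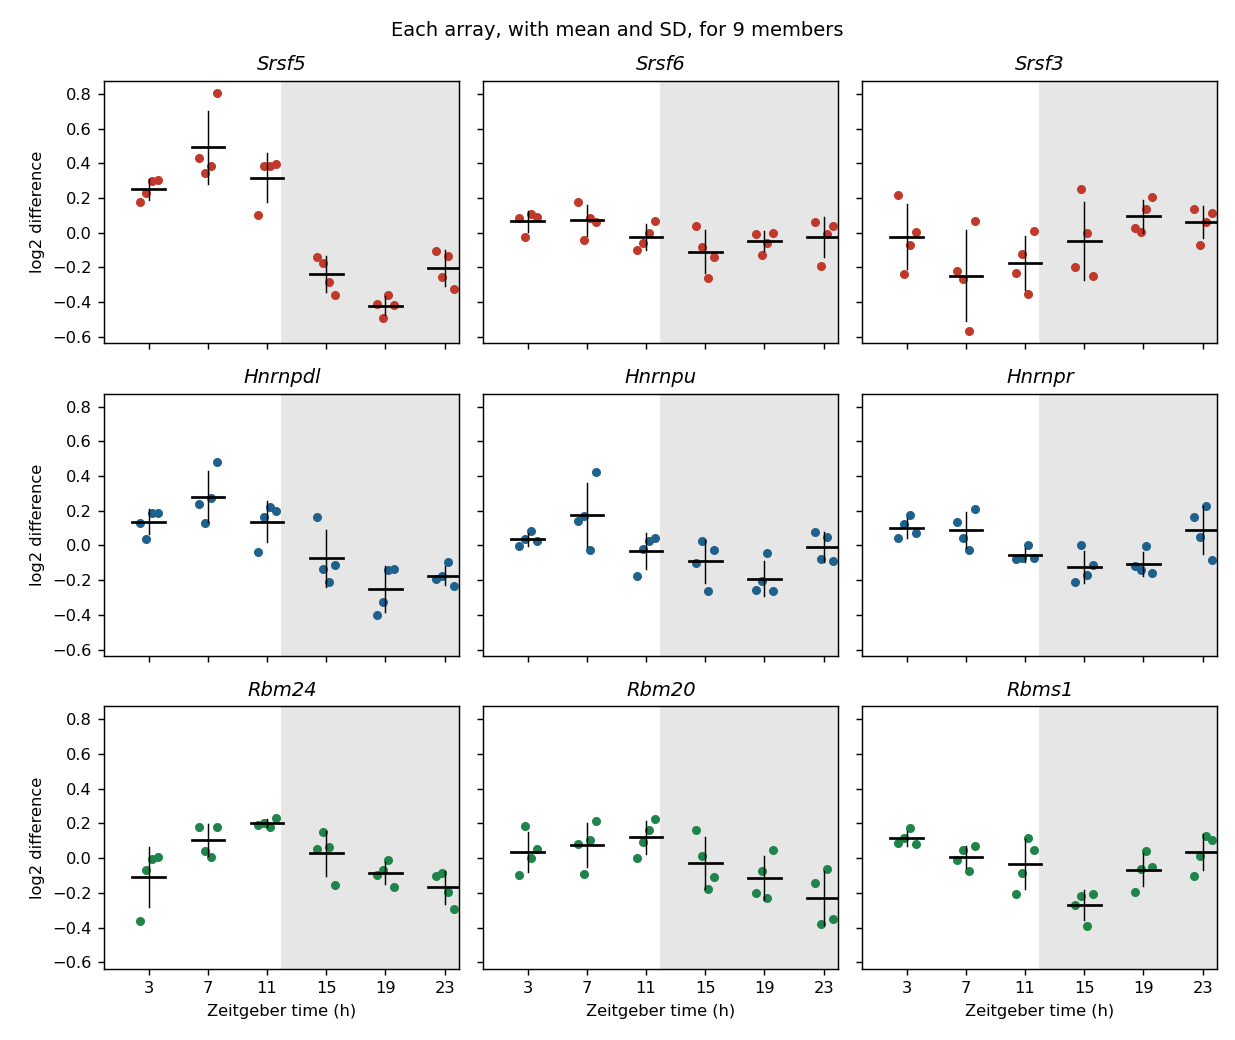
Log2 difference from the gene's median on each of the 24 arrays (points, replicates 1 to 4 from left to right) against zeitgeber time in h for 9 members, with the mean (bar) and SD (line) of each time and the dark phase shaded. Srsf5 runs from 0.49 at ZT07 to -0.42 at ZT19 with no overlap of day and night arrays, Rbm24 is highest at ZT11, and Rbms1 is lowest at ZT15.

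The 4 Hnrnp genes with a rhythm all peaked in the light, with smaller amplitudes than Srsf5. Hnrnpdl, a paralogue of Hnrnpd that binds RNA and is mutated in a form of limb-girdle muscular dystrophy, led the family (amplitude of 0.266 ± 0.032 (SE, 24 arrays), 1.45-fold from peak to trough, peak at ZT 7.41 ± 0.459 h, adjusted p = 1.89e-05). Its day arrays read 0.13, 0.038, 0.19 and 0.19 at ZT03, 0.24, 0.13, 0.28 and 0.48 at ZT07, and -0.038, 0.16, 0.22 and 0.20 at ZT11. At night the arrays read 0.16, -0.13, -0.21 and -0.11 at ZT15, -0.40, -0.33, -0.14 and -0.14 at ZT19, and -0.19, -0.17, -0.096 and -0.23 at ZT23. The arrays at ZT07 all lay above those at ZT19, and 11 of the 12 night arrays were below 0, the exception being ZT15 replicate 1. The fitted peak lay within 1 SE of that of Srsf5.

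Hnrnpu, a scaffold protein of the nucleus that is needed for splicing in the mouse heart, had an amplitude of 0.147 ± 0.0324 (SE, 24 arrays), 1.23-fold from peak to trough, peak at ZT 5.87 ± 0.84 h, adjusted p = 0.0133. By day it read -0.0060, 0.037, 0.086 and 0.028 at ZT03, 0.14, 0.17, -0.025 and 0.42 at ZT07, and -0.18, -0.019, 0.023 and 0.045 at ZT11. At night it read -0.10, 0.024, -0.26 and -0.025 at ZT15, -0.26, -0.20, -0.046 and -0.26 at ZT19, and 0.076, -0.079, 0.049 and -0.090 at ZT23. The mean was 0.18 ± 0.185 at ZT07 and -0.19 ± 0.101 at ZT19 (SD, n = 4), and the 2 times did not overlap. Without ZT07 replicate 4, its highest array, the amplitude was 0.120 (adjusted p = 0.0227). Of its 2 probe sets, 1 passed over all probe sets (1.33-fold, adjusted p = 0.0218) and 1 did not (1.13-fold, adjusted p = 0.115), with peaks at ZT 5.96 and ZT 5.65.

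Hnrnpr, a relative of the RNA-binding protein SYNCRIP, peaked earlier (amplitude of 0.132 ± 0.0247 (SE, 24 arrays), 1.2-fold from peak to trough, peak at ZT 3.45 ± 0.711 h, adjusted p = 0.003). Its day arrays read 0.045, 0.12, 0.17 and 0.070 at ZT03, 0.13, 0.042, -0.026 and 0.21 at ZT07, and -0.080, -0.071, 0.0040 and -0.072 at ZT11. Night arrays read -0.21, 0.0040, -0.17 and -0.11 at ZT15, -0.12, -0.14, -0.0040 and -0.16 at ZT19, and 0.16, 0.046, 0.23 and -0.086 at ZT23. Its arrays at ZT03 all lay above 0 and above those at ZT15, while single arrays at ZT07 (replicate 3) and ZT23 (replicate 4) were below 0. Hnrnpd, or AUF1, which binds AU-rich elements and promotes mRNA decay, had an amplitude of 0.116 ± 0.0248 (SE, 24 arrays), 1.17-fold from peak to trough, peak at ZT 5.49 ± 0.816 h, adjusted p = 0.0105. Its means were 0.11 ± 0.0185 at ZT03, 0.074 ± 0.125 at ZT07 and -0.16 ± 0.0828 at ZT19 (SD, n = 4). Here too the 2 probe sets differed in call, 1.28-fold (adjusted p = 0.000151 over all probe sets) and 1.08-fold (adjusted p = 0.738), with peaks at ZT 5.51 and ZT 5.42.

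Among the 15 Hnrnp genes that did not pass, Hnrnpl, a splicing regulator that binds CA repeats, was closest (amplitude of 0.101 ± 0.0271 (SE, 24 arrays), 1.15-fold from peak to trough, peak at ZT 6.96 ± 1.02 h, adjusted p = 0.0522). Hnrnpm, which acts in exon skipping, followed (amplitude of 0.127 ± 0.0351 (SE, 24 arrays), 1.19-fold from peak to trough, peak at ZT 5.16 ± 1.05 h, adjusted p = 0.0626). Hnrnpl did pass in 10 and Hnrnpm in 6 of 32 alternative fits. Hnrnpa3, a shuttling hnRNP of the A/B group, had the fourth-largest fitted amplitude of the family (amplitude of 0.132 ± 0.0367 (SE, 24 arrays), 1.2-fold from peak to trough, peak at ZT 6.36 ± 1.06 h, adjusted p = 0.0653). Its day arrays read -0.12, 0.057, 0.15 and 0.13 at ZT03, 0.32, 0.21, 0.078 and 0.34 at ZT07, and -0.18, 0.11, -0.049 and 0.19 at ZT11. At night they read 0.14, -0.066, -0.29 and 0.0098 at ZT15, -0.033, -0.092, -0.083 and -0.13 at ZT19, and -0.10, -0.096, 0.17 and -0.0098 at ZT23. Arrays at ZT07, its highest time, were all above those at ZT19, its lowest, while ZT11 and ZT15 spread over both sides of 0. Such a gap was found in 27.6% of all genes. Without ZT11 replicate 1 the rhythm test called 8 Hnrnp genes, and without ZT15 replicate 1 it called 7. The 5 probe sets of Hnrnpf disagreed in timing, with fitted peaks at ZT 6.57, ZT 6.40, ZT 16.5, ZT 16.8 and ZT 23.5, and none of the 5 passed.

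Fitted peaks of the Hnrnp genes, called or not, fell between ZT03 and ZT09 in 17 of 19 members, beside 24.3% of all genes. Over this window, which was chosen after the values were seen, the count was 19 of 41 for Rbm genes and 3 of 10 for Srsf genes. A fitted peak anywhere in the light was found for 18 of 19 Hnrnp, 30 of 41 Rbm and 5 of 10 Srsf genes, beside 48.7% of all genes. The 2 Hnrnp genes outside the window were Hnrnph1, at ZT 2.09, and Hnrnpa1l2-ps2, at ZT 21.5, whose symbol is that of a pseudogene although the RefSeq table lists it as protein-coding. Peaks of members that did not pass have wide errors, so the window describes point estimates. The highest and the lowest time had non-overlapping arrays in 12 Hnrnp, 13 Rbm and 2 Srsf genes, beside 27.6% of all genes. Both times were picked from the same values, so such a gap in a single gene is not a test.

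**Figure D3:**
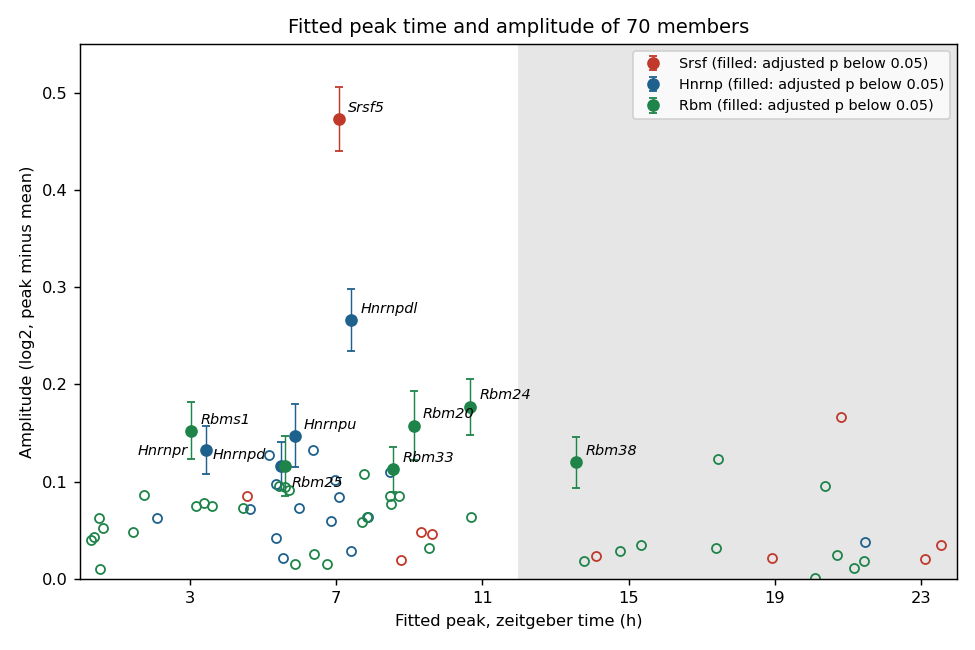
Fitted amplitude (log2, peak minus mean) against fitted peak time (zeitgeber time in h, dark phase shaded) for 70 members. Filled points with SE bars and names are the 11 members with a 24-h rhythm, open points the others: 10 of the 11 peak in the light, and Rbm38 peaks at ZT 13.6.

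Rbm genes with a rhythm peaked at several times of day. Rbm24, a muscle-enriched splicing regulator, was highest at ZT11 (amplitude of 0.177 ± 0.0289 (SE, 24 arrays), 1.28-fold from peak to trough, peak at ZT 10.7 ± 0.622 h, adjusted p = 0.000724). Its day arrays read -0.36, -0.070, -0.0037 and 0.0074 at ZT03, 0.18, 0.043, 0.0037 and 0.18 at ZT07, and 0.19, 0.20, 0.18 and 0.23 at ZT11. Its night arrays read 0.054, 0.15, 0.063 and -0.16 at ZT15, -0.096, -0.067, -0.011 and -0.17 at ZT19, and -0.11, -0.085, -0.19 and -0.29 at ZT23. The 4 arrays at ZT11 lay within an SD of 0.0236 and above all arrays of ZT15, ZT19 and ZT23.

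Rbm20, the regulator of titin splicing, had an amplitude of 0.158 ± 0.0358 (SE, 24 arrays), 1.24-fold from peak to trough, peak at ZT 9.13 ± 0.867 h, adjusted p = 0.017. It read -0.095, 0.18, 0.000052 and 0.052 at ZT03, 0.082, -0.093, 0.11 and 0.22 at ZT07, and -0.000052, 0.096, 0.16 and 0.23 at ZT11 in the light. In the dark it read 0.16, 0.010, -0.18 and -0.11 at ZT15, -0.20, -0.077, -0.23 and 0.047 at ZT19, and -0.14, -0.38, -0.060 and -0.35 at ZT23. Values at ZT11 were all above those at ZT23, but the replicates of ZT15 lay on both sides of 0. Without the 3 arrays of lowest weight the adjusted p was 0.0520.

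Rbms1, which binds single-stranded nucleic acids, had a single low time (amplitude of 0.152 ± 0.0292 (SE, 24 arrays), 1.23-fold from peak to trough, peak at ZT 3.03 ± 0.732 h, adjusted p = 0.00402). Its day arrays read 0.085, 0.11, 0.18 and 0.082 at ZT03, -0.013, 0.045, -0.072 and 0.070 at ZT07, and -0.21, -0.089, 0.12 and 0.048 at ZT11. At night they read -0.27, -0.22, -0.39 and -0.20 at ZT15, -0.19, -0.062, 0.041 and -0.049 at ZT19, and -0.10, 0.013, 0.13 and 0.11 at ZT23. All 4 arrays at ZT15 lay below all arrays of ZT03, ZT07, ZT19 and ZT23, and ZT11 replicate 1 fell among them. The mean at ZT15 was -0.27 ± 0.0846 (SD, n = 4).

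Rbm38, a target of p53 that binds and stabilises the Cdkn1a transcript, was the one member of the 11 with a dark-phase peak (amplitude of 0.12 ± 0.0264 (SE, 24 arrays), 1.18-fold from peak to trough, peak at ZT 13.6 ± 0.84 h, adjusted p = 0.0133). Its means rose from -0.11 ± 0.0414 at ZT03 to 0.19 ± 0.077 at ZT15 (SD, n = 4), and these arrays did not overlap. None of its 3 probe sets passed alone over all probe sets (adjusted p = 0.101, 0.133 and 0.277), and their peaks lay between ZT 11.6 and ZT 14.6. Rbm33 had an amplitude of 0.113 ± 0.023 (SE, 24 arrays), 1.17-fold from peak to trough, peak at ZT 8.56 ± 0.779 h, adjusted p = 0.00713, with means of 0.13 ± 0.109 at ZT07 and -0.13 ± 0.101 at ZT23. Rbm25, a splicing factor of the nuclear speckles, passed narrowly (amplitude of 0.116 ± 0.0309 (SE, 24 arrays), 1.18-fold from peak to trough, peak at ZT 5.59 ± 1.01 h, adjusted p = 0.0491), and its ZT07 arrays had an SD of 0.239. Leaving out a single array ended its call in 21 of 24 cases, with an adjusted p as high as 0.0883, and leaving out the 3 arrays of lowest weight gave 0.122.

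Among the Rbm genes that did not pass, Rbmx2 (amplitude of 0.091 ± 0.0243 (SE, 24 arrays), 1.13-fold from peak to trough, peak at ZT 5.72 ± 1.02 h, adjusted p = 0.0512) and Rbm43 (amplitude of 0.0749 ± 0.0222 (SE, 24 arrays), 1.11-fold from peak to trough, peak at ZT 3.17 ± 1.13 h, adjusted p = 0.091) had the smallest p-values. Rbmx2 did pass in 10 and Rbm43 in 1 of 32 alternative fits. Rbm5, a splicing regulator of apoptosis genes, had the fourth-largest fitted amplitude, and a night peak (amplitude of 0.124 ± 0.0429 (SE, 24 arrays), 1.19-fold from peak to trough, peak at ZT 17.5 ± 1.33 h, adjusted p = 0.183). By day it read -0.45, -0.26, -0.029 and -0.18 at ZT03, -0.17, -0.054, -0.35 and 0.17 at ZT07, and -0.40, -0.11, -0.0057 and 0.11 at ZT11. By night it read 0.16, 0.14, 0.020 and 0.068 at ZT15, 0.041, -0.031, 0.039 and -0.068 at ZT19, and 0.0057, 0.038, 0.12 and 0.074 at ZT23. Its day arrays spread widely, and its ZT15 arrays all lay above those of ZT03. These were its highest and lowest times, which did not overlap in 27.6% of all genes. The remaining Rbm genes that did not pass had fitted changes of 1.00 to 1.16-fold.

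Night against day was tested as the mean of ZT15, ZT19 and ZT23 minus that of ZT03, ZT07 and ZT11, again in limma with adjustment over all genes. Night values were lower in 9 members (2.49% of all genes) and higher in 0 (1.89% of all genes). At an unadjusted p below 0.05 there were 25 lower and 2 higher members, beside 8.86% and 7.56% of all genes. The 9 were 1 Srsf, 4 Hnrnp and 4 Rbm genes. Srsf5 differed by -0.64 ± 0.0483 (log2, SE, 12 arrays against 12, adjusted p = 7.17e-08), or 1.56-fold, with a median of 0.37 by day and -0.30 by night. Hnrnpdl differed by -0.35 ± 0.0474 (adjusted p = 0.000105), with 0.19 by day and -0.16 by night. Rbm20 followed with -0.20 ± 0.0504 (adjusted p = 0.0209), Rbmx, the hnRNP G gene on the X chromosome, with -0.18 ± 0.0484 (adjusted p = 0.0389), and Rbm25 with -0.16 ± 0.0451 (adjusted p = 0.0478). The last 4 were Hnrnpu at -0.16 ± 0.0448 (adjusted p = 0.0463), Rbm33 at -0.14 ± 0.0329 (adjusted p = 0.0126), Hnrnpl at -0.14 ± 0.038 (adjusted p = 0.0365) and Hnrnpd at -0.14 ± 0.0351 (adjusted p = 0.0250). Tested alone over all probe sets in limma, neither of the 2 probe sets of Hnrnpu passed (adjusted p = 0.0590 and 0.194). For Hnrnpd 1 passed (-0.22, adjusted p = 0.000862) and 1 did not (-0.052, adjusted p = 0.728). Among genes not called, 1 of 3 probe sets of Hnrnpk (adjusted p = 0.0102) and 1 of 2 of Srsf6 (adjusted p = 0.0120) passed.

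Of the 9 calls, 4 depended on single arrays. Srsf5, Hnrnpdl, Rbm20, Rbm33 and Hnrnpd were called without each of the 24 arrays in turn, though Rbm33 and Hnrnpd were lost without the 3 arrays of lowest weight (adjusted p = 0.0580 for both). Hnrnpl was lost without any of 14 arrays, Hnrnpu without any of 18, Rbm25 without any of 21 and Rbmx without any of 10, with adjusted p-values up to 0.0692, 0.0847, 0.0838 and 0.0767. Without ZT03 replicate 4, ZT11 replicate 3, ZT19 replicate 2 or ZT23 replicate 4 there were 5 members. Rbm5 had the largest difference in the other direction, 0.19 ± 0.0577 (adjusted p = 0.0583), and was called higher at night without ZT03 replicate 3, ZT07 replicate 4 or ZT11 replicate 4.

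The sign of the difference, whether or not a gene passed, was below 0 in 18 of 19 Hnrnp genes, 26 of 41 Rbm genes and 5 of 10 Srsf genes, beside 48.1% of all genes. The median night minus day was -0.093 for the Hnrnp, -0.025 for the Rbm and -0.0031 for the Srsf genes, and 0.0021 over all genes. Members of a family were measured on the same arrays and are not independent of each other. The 1 Hnrnp gene above 0 was Hnrnpa1l2-ps2 (0.043).

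**Figure D4:**
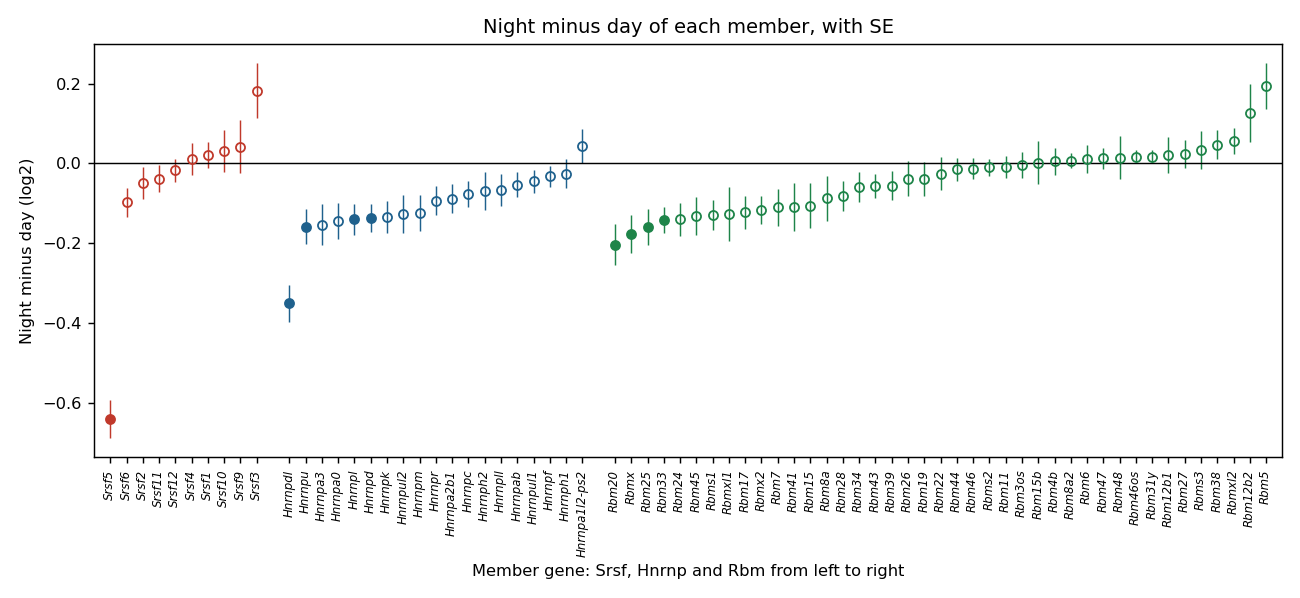
Night minus day (log2, mean of 12 arrays minus mean of 12 arrays, with SE) for each of the 70 members, ordered within the Srsf, Hnrnp and Rbm families. Filled points are the 9 members with an adjusted p below 0.05, all below 0, and in the Hnrnp family 18 of 19 points lie below 0.

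Dusk against dawn, the mean of ZT11 and ZT15 minus that of ZT23 and ZT03, picked out other members. Rbm24 (0.25 ± 0.0516, log2, SE, 8 arrays against 8, adjusted p = 0.00474) and Rbm38 (0.21 ± 0.0433, adjusted p = 0.00621) were higher at dusk, 2 of 70 members where 2.06% of all genes were. Rbms1 (-0.23 ± 0.0463, adjusted p = 0.00452) and Hnrnpr (-0.18 ± 0.044, adjusted p = 0.0172) were lower at dusk, 2 of 70 where 1.7% of all genes were. All 4 calls held without each array in turn, but that of Rbm38 was lost with the most variable probe set of each gene (adjusted p = 0.0988), as was its rhythm (0.0772). None of these 4 passed for night against day in the main fit. Rbms1 (-0.13, adjusted p = 0.0534) did pass with the replicate block, with array weights, with arrays centred on their median and over protein-coding genes only. It also passed without ZT07 replicate 3, ZT11 replicate 1, ZT19 replicate 3 or ZT23 replicate 3. Rbm24 passed without ZT03 replicate 1 or ZT15 replicate 2. For Srsf5 the dusk minus dawn difference was 0.016 ± 0.0592 (adjusted p = 0.954).

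Any difference among the 6 times, tested with limma's moderated F, was found in 6 members, beside 4.72% of all genes. These were Srsf5 (adjusted p = 5.37e-07), Hnrnpdl (0.000860), Rbms1 (0.00993), Rbm24 (0.0145), Rbm38 (0.0391) and Hnrnpr (0.0391). All 6 also had a 24-h rhythm. Leaving out a single array ended the call in 16 of 24 cases both for Hnrnpr (adjusted p as high as 0.0762) and for Rbm38 (as high as 0.0980). The call of Rbm24 was lost without the 3 arrays of lowest weight. Those of Srsf5, Hnrnpdl and Rbms1 held in all 32 alternative fits.

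Other genes of the splicing machinery were read from the same fits, in which 7.61% of all genes had a rhythm, 3.83% with a light-phase peak, and 19.5% an unadjusted p below 0.05. Of 9 measured SR protein kinases, which phosphorylate SR proteins and set their location, 0 had a 24-h rhythm in limma's test and 2 had an unadjusted p below 0.05. The smallest p-values were those of Srpk2 (1.11-fold, ZT 1.95, adjusted p = 0.149), the muscle-enriched Srpk3 (1.21-fold, ZT 12.4, adjusted p = 0.206) and Srpk1 (1.12-fold, ZT 4.77, adjusted p = 0.382). Of 58 further splicing regulators 7 passed, 6 with a light-phase peak. Mbnl2, a muscleblind protein, peaked in the night (1.31-fold, ZT 18.4, adjusted p = 4.55e-05), whereas Ptbp2 (1.31-fold, ZT 1.63, adjusted p = 7.04e-05) and Qk, the quaking gene (1.27-fold, ZT 3.07, adjusted p = 0.000390), peaked after lights-on. Of 57 core spliceosome genes 2 passed, or 3.51%, both subunits of the SF3B complex that recognises the branch point: Sf3b1 (1.34-fold, ZT 9.81, adjusted p = 4.76e-06) and Sf3b2 (1.11-fold, ZT 8.85, adjusted p = 0.0179). Ddx46 was next (1.15-fold, adjusted p = 0.0676). The median change was 1.11-fold in the kinases, 1.08-fold in the regulators and 1.07-fold in the core genes, beside 1.06-fold over all genes.

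Cirbp, the cold-inducible RNA-binding protein gene, which the naming rule leaves out, had a rhythm close in time to Srsf5 and Hnrnpdl (1.51-fold, peak at ZT 8.25 ± 0.484 h, adjusted p = 3.82e-05), with 0.18 ± 0.0505 (SD, n = 4) at ZT07 and -0.40 ± 0.0438 at ZT23. The probe set of its relative Rbm3 is shared with a pseudogene and was not analysed here.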

How the data were processed

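Per the labels' protocols, TRIzol RNA from snap-frozen hearts (500 ng per sample) was labelled with biotin by the Affymetrix protocol and hybridised, 1 array per sample. The authors deposited 1 value per probe set and array, read here as log2. The sources used here do not give the log base, summarisation, background correction or software. In the deposited log2 values each probe set's median over 24 arrays is 0 within 5e-07, so no expression level, signal over background or filter on dim probes is available, and the number of arrays limits the precision.

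Of 34351 probe sets, 23521 named 1 gene in the platform annotation (1814 several, 9016 none). They were averaged to 22180 genes, and checked by gene ID against RefSeq (GRCm38.p6, 23328 probe sets matched, 0 symbols changed). Limma 3.58.1 (R 4.3.3, lmFit and eBayes) fitted a cosine and a sine of 24 h, and in a second model the 6 time means with their contrasts (18 residual degrees of freedom), with Benjamini-Hochberg adjustment over all genes. Amplitude is peak minus mean, and a fold from peak to trough raises 2 to the doubled amplitude. The steps were tested on simulated data. Groups follow the time in the labels, and p-values weigh a fitted effect against limma's moderated spread between these arrays. Replicate numbers were not used as a block, since the labels do not say that they pair arrays. Only 5 of 60 same-numbered pairs of arrays had correlated deviations above 0.1. Promoter sequences are from RefSeq (GRCm38.p6).

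Named members were all those called, the 4 largest amplitudes of each family, the 2 uncalled members of each family with the smallest p, and the 3 smallest p-values of each related list. Members and lists were chosen with earlier results of these data known. Of the 9 alternatives tried, 8 changed the model, weights, scaling or genes and 1 left out each array in turn.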

Additional observations from a re-analysis of the deposited data

Results flagged for a closer look

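Within each group of 4 arrays, the array farthest from the others was compared with the group's range by Dixon's test. This was done for 18 named members and 3 family means, and not for Srsf2, Hnrnpa3 and Rbm5. Of 126 groups 5 were marked, where chance would mark about 6.3. Srsf5 at ZT11 had 0.10 in replicate 1 and 0.38 to 0.39 in the other arrays. The Hnrnp family mean in the same array was -0.069, and 0.013 to 0.029 in the others. Hnrnpr at ZT11 had 0.0040 in replicate 3, and -0.080 to -0.071 in the others. Rbm25 at ZT15 had -0.20 in replicate 1, and -0.080 to -0.056 in the others. Rbm33 at ZT19 had 0.081 in replicate 4, and -0.14 to -0.10 in the others.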

How the results depend on the processing

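Of the 11 members with a 24-h rhythm, 10 were called without each of the 24 arrays in turn, the exception being Rbm25, and 8 were called in all 32 alternatives. Leaving out 1 array gave 10 to 14 members with a rhythm (1 to 2 Srsf, 4 to 8 Hnrnp, 5 to 7 Rbm), 4 to 7 with any difference, 5 to 11 for night against day (0 to 1 higher at night) and 4 to 4 for dusk against dawn. Srsf genes with a rhythm numbered 2 with the replicate block, 3 with array weights, 2 without the 3 arrays of lowest weight and 2 with the most variable probe set of each gene. Hnrnp genes numbered 7 with array weights and 7 with quantile normalization. Members that differed between night and day numbered 14 with array weights and 5 without the 3 arrays of lowest weight. The 1 member higher at night, with array weights, without those arrays and with quantile normalization, was Rbm5. The cause of these shifts was not tested. Replicate numbers share no stated origin: the mean correlation of deviations was -0.014 for same-numbered arrays and 0.0051 for others, and 6 of 24 arrays correlated best with their own number. With the replicate block 12 members had a rhythm, all 11 and Srsf6, and the night-day calls of Hnrnpl, Hnrnpu and Rbm25 and the any-difference call of Hnrnpr were lost, while Rbms1 was called lower at night. No named result reversed, a check that left out Srsf2, Hnrnpa3 and Rbm5. A filter on dim probes could not be run on centred values.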

Other observations

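Some members of the 3 families are measured only, or also, by probe sets that name several genes, 11 in all, which entered no comparison above because the gene cannot be told. Tested in limma over all 34351 probe sets, 4 of the 11 had a 24-h rhythm, beside 5.27% of all probe sets. Both probe sets of Hnrnpa1, an abundant hnRNP, are shared with pseudogenes or predicted genes. They changed 1.25-fold (peak at ZT 8.02, adjusted p = 0.00167) and 1.27-fold (peak at ZT 7.66, adjusted p = 0.00360), and were lower at night by log2 -0.23 (adjusted p = 0.000682) and -0.24 (adjusted p = 0.00158). The probe set shared by Hnrnph3 and Rufy2 changed 1.24-fold with a peak at ZT 1.49 (adjusted p = 0.0386), from 0.14 ± 0.080 (SD, n = 4) at ZT03 to -0.21 ± 0.11 at ZT11. A probe set shared by Rbm14 and Rbm4 changed 1.2-fold with a peak at ZT 16.2 (adjusted p = 0.0154), while a second one of the same genes changed 1.08-fold (adjusted p = 0.776). The other 6, which name Srsf10, Rbm10, Rbm12, Rbm18, Rbm42 and Hnrnpk beside other genes, did not pass (adjusted p from 0.396 to 0.945).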
